A study of Mus musculus with 36 samples.

Results

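The T-cell receptor complex and its co-receptors were followed through 10 genes, namely Cd3d, Cd3e, Cd3g and Cd247, which encode the signalling chains of the receptor, Cd4, Cd8a and Cd8b1, which encode the co-receptors, Cd28 and Cd5, which encode surface molecules that raise or dampen the signal, and Lck, which encodes the kinase that starts it. Every non-control probe annotated to 1 of these genes was taken, which gave 13 probes of 39429 and 10 genes of 31093 on the array. Peripheral blood came from 36 male C57BL/6J mice, irradiated at 8 to 10 weeks of age by the study's methods and sampled on day 7, with 1 array per mouse and 6 groups of 6. These were controls, which the methods describe as sham-irradiated, and mice given 3 Gy of x-rays, 3 Gy of a mixed field in which neutrons made up 5, 15 or 25% of the dose, or 0.75 Gy from the neutron source without x-rays. The neutron dose was thus 0.15, 0.45 and 0.75 Gy in the mixed fields and 0.75 Gy in the group named here neutron alone, whose beam, by the methods, also carries a share of photons. No group carried a transgene or a deletion, and globin RNA had been reduced in all samples.

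T cells recognise peptides bound to MHC molecules through an antigen receptor whose variable chains have almost no cytoplasmic part of their own. The CD3 chains and the zeta chain (Cd247) carry the signal inward through paired tyrosine motifs, which Lck phosphorylates once CD4 or CD8 has brought it to the receptor. CD4 marks helper and regulatory T cells, and CD8, a dimer of CD8 alpha with itself or with CD8 beta (Cd8b1), marks cytotoxic T cells. Lymphocytes are among the most radiosensitive cells of the blood.

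Of the member probes, 4 are shown, each of 60 bases with at least 1 open reading frame, because they show which stretch of each transcript was read. The probes for Cd3d and for the representative of Cd247 span the tyrosine motifs of the signalling chains, and the capitals mark the tyrosine codon and the leucine codon that stands after 2 intervening codons.
Cd3d probe A_51_P285206: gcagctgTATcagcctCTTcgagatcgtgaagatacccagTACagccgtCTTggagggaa
Cd247 probe A_52_P173555: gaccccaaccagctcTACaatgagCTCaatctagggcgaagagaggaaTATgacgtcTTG
The other pair are the further probes of the co-receptors, set below beside the probes that represent these genes, and are printed without capitals.
Cd8a probe A_52_P150547: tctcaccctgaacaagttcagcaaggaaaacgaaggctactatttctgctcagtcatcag
Cd4 probe A_52_P383089: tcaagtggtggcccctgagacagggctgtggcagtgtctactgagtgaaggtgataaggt
By the array annotation (mouse build mm9) the Cd8a probe lies at chr6:71323885-71323944 on the forward strand and the Cd4 probe at chr6:124817706-124817765 on the reverse strand, while the Cd3d and Cd247 probes are listed there as unmapped. In each of the first pair this tyrosine and leucine spacing occurs 2 times in an open reading frame, as it does in the signalling motif of these chains, and in none of the other 11 member probes did it occur 2 times.

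All values are log2 intensities minus the median log2 intensity of the same array, and levels of different probes are not comparable with each other. Of the 13 probes, 12 met the background filter (a uniform spot, significantly above background, on over 75% of arrays), and all 12 lay at least 1.5-fold from their median on at least 20% of the arrays. Thus 10 of 10 genes were tested, among 15085 genes in all, each by its brightest probe. Of these 10 probes, 9 were well above background on all 36 arrays, and that of Cd247 on 27. The number of probes well above background ran from 15581 to 21300 per array, with a median of 16569.5 after neutron alone and of 19921.5 in controls. The arrays were scanned in 4 sessions. Of the controls and x-ray arrays, 5 each were scanned together, 5 arrays each of the 5 and 15% groups in another session, and 1 array of each of these 4 groups in a further session, whereas all arrays of the 25% and neutron alone groups were scanned in a session of their own. For the latter groups, session and exposure cannot be told apart in any comparison with controls or with x-rays. A gene was called differentially expressed where limma gave an unadjusted p below 0.001 and its Benjamini-Hochberg value, taken over all genes tested, was below 0.05. In whole blood, fewer cells of a type and less RNA per cell cannot be told apart.

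Against controls, the log2 fold-change was below 0 for 9 of 10 members after x-rays, 5 and 15% neutron, for 8 after 25% neutron and for 7 after neutron alone, and Cd4 was above 0 in all 5 comparisons. Cd8a was the only member differentially expressed after x-rays in the fit over genes. In a fit over all 21484 probes above background, Cd5 and Cd247 also passed there in limma (adjusted p = 0.0031 and 0.00351). Of all those probes, 27.6% were called in either direction. Cd3d, Cd8a and Cd5 fell after 5% neutron, the same genes and Cd247 after 15% neutron, and Cd8a and Cd5 after 25% neutron. After neutron alone, 0 of 10 members passed in limma, although 5 had an unadjusted p below 0.05, as did 64.1% of all genes. No member was called higher in any of these comparisons. Of all genes tested, 16.9% were called lower after x-rays, 14% after 5% neutron, 16.5% after 15% neutron, 13.9% after 25% neutron and 20.5% after neutron alone. The member counts of 1, 3, 4, 2 and 0 of 10 are to be read against these shares, and the count for x-rays and for neutron alone lay below them.

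The threshold on the unadjusted p decided many of these calls. With an adjusted p below 0.05 alone, 7 of 10 members were lower after x-rays, 7 after 5% neutron, 6 after 15% neutron, 5 after 25% neutron and 4 after neutron alone, where 33.7, 25.6, 27.6, 26 and 33.8% of all genes were lower by that rule. Cd4 was the 1 member that was higher by it, after x-rays, 15% neutron and neutron alone, where 25.2, 22.1 and 25.8% of all genes were. The median log2 fold-change of the members was -0.84 after x-rays, -1.16 after 5% neutron, -0.87 after 15% neutron, -0.44 after 25% neutron and -0.40 after neutron alone. Over all genes tested the medians were -0.11, -0.08, -0.02, -0.12 and -0.12. These comparisons share the same 6 control arrays.

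**Figure D1:**
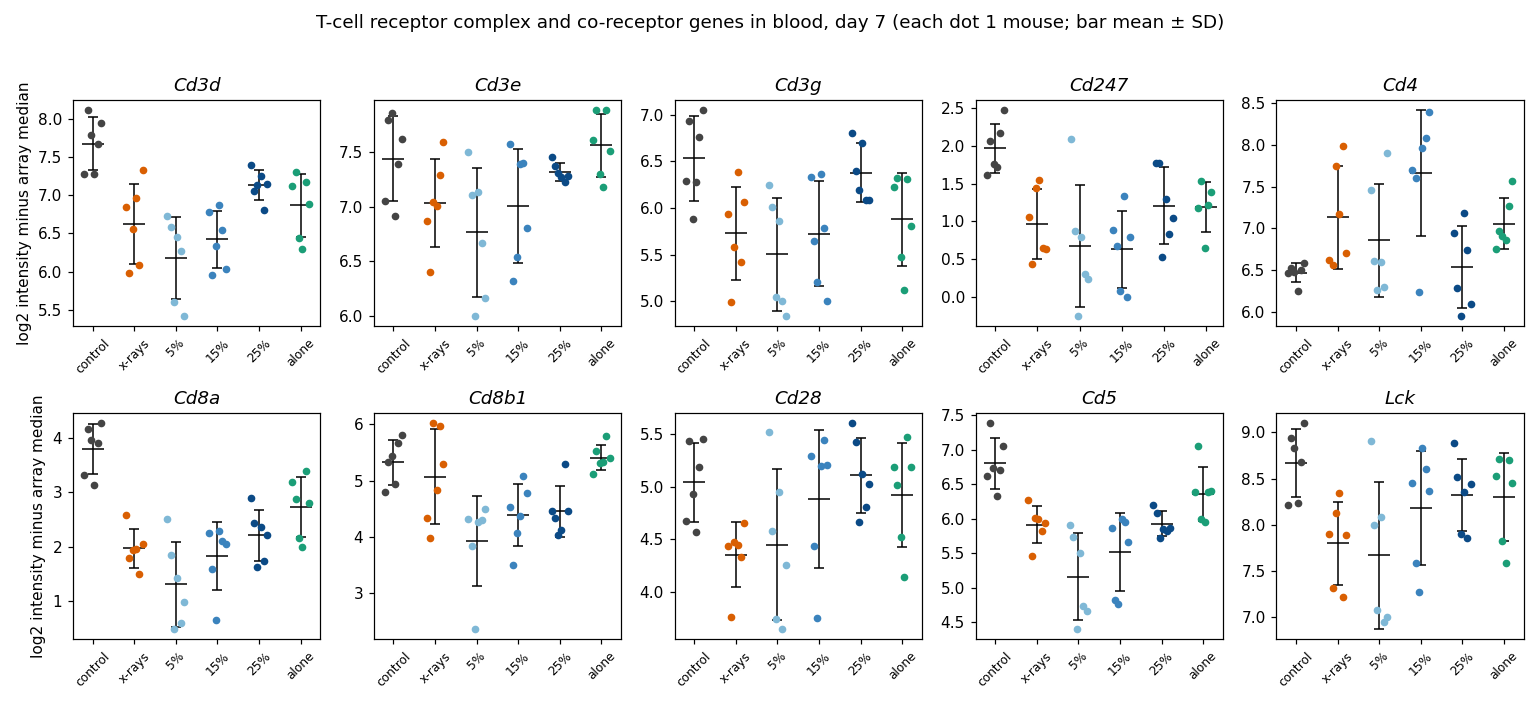
Log2 intensity minus the array median (y axis) of the representative probe of each of the 10 genes in the 6 groups (x axis), with 1 dot per mouse and bars for the mean ± SD; y axes differ between panels. Cd8a lay between 3.13 and 4.26 in controls and at or below 2.89 in every array given 3 Gy, whereas Cd4 lay between 6.26 and 6.58 in controls and reached 8.38 after 15% neutron.

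**Figure D2:**
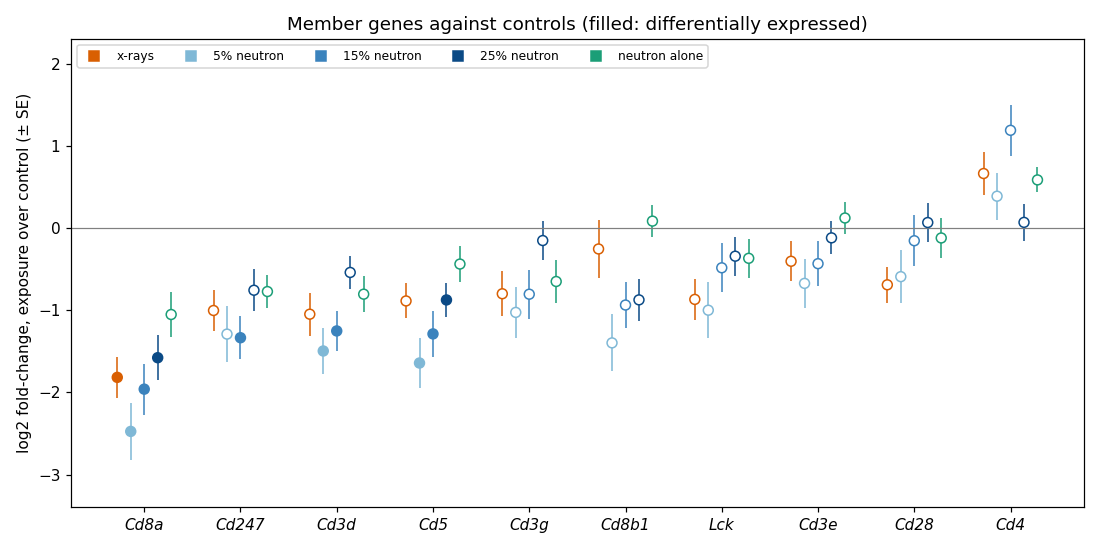
Log2 fold-change over controls ± SE (y axis) of the 10 genes (x axis, ordered by their mean over the exposures) for the 5 exposures by colour; filled symbols were differentially expressed. Cd8a is lowest in every exposure, from -1.05 after neutron alone to -2.48 after 5% neutron, and Cd4 is the 1 gene with a value above 0 throughout.

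CD8 alpha showed the largest fall. In controls, the log2 level of Cd8a ran from 3.13 to 4.26 with a median of 3.93, and after x-rays from 1.49 to 2.58 with a median of 1.95. In the mixed fields it ran from 0.50 to 2.51 (median 1.21) at 5% neutron, from 0.66 to 2.29 (2.07) at 15% and from 1.63 to 2.89 (2.28) at 25%, and after neutron alone from 2.00 to 3.38 (2.84). No array given 3 Gy reached the lowest control, while the neutron alone arrays overlapped with the controls. The log2 fold-change was -1.82 ± 0.25 (SE) after x-rays, or 3.53-fold lower (limma, adjusted p = 7.39e-05), and -2.48 ± 0.35 after 5% neutron, or 5.56-fold lower (adjusted p = 0.000119). It was -1.96 ± 0.31 after 15% neutron (adjusted p = 0.00019) and -1.58 ± 0.27 after 25% neutron (adjusted p = 0.0004 in limma). After neutron alone it was -1.05 ± 0.27, with an adjusted p of 0.00477 and an unadjusted p of 0.00194 that did not pass. The Cd8a probe printed above, tested among all 21484 probes above background, gave -1.78, -1.94, -1.68, -1.57 and -0.93 in the same order, and it passed for the same 4 exposures, although it was well above background on 23 arrays only.

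The order of the group means of Cd8a was controls, neutron alone, 25% neutron, x-rays, 15% neutron and 5% neutron. Every pair of neighbours in this order overlapped, and from neutron alone downwards each step between means was smaller than the larger SD of the pair. Across the 10 genes, the means were lowest after 5% neutron for 7 genes and highest in controls for 6. All 50 pairs of neighbouring groups overlapped, and 45 differed by less than the larger SD.

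CD8 beta was not differentially expressed against controls in any group. Cd8b1 ran from 4.80 to 5.81 in controls (median 5.39) and from 3.98 to 6.02 after x-rays (5.07), a log2 fold-change of -0.26 ± 0.36 (limma, adjusted p = 0.554). After 5% neutron its median was 4.28 and its lowest array 2.37, and the log2 fold-change was -1.40 ± 0.35 with no overlap with controls and an adjusted p of 0.00506, but with an unadjusted p of 0.00122 it did not pass. The values at 15 and 25% neutron were -0.94 ± 0.29 and -0.88 ± 0.26, and after neutron alone it was 0.08 ± 0.19, none of which passed. The lowest 5% array stood apart, at 2.37 against 3.84 for the next.

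Cd4, read by the probe that represents it, had a mean above that of controls in every irradiated group. It ran from 6.26 to 6.58 in controls (median 6.50). After x-rays it ran from 6.56 to 7.99 (6.94), from 6.26 to 7.90 after 5% neutron (6.61) and from 6.24 to 8.38 after 15% neutron (7.83). After 25% neutron it ran from 5.96 to 7.19 (6.52), and after neutron alone from 6.76 to 7.57 (6.94). The controls lay within a narrow band and all 6 neutron alone arrays above it, a position that 15% of all genes took, while the irradiated groups spread more widely. The log2 fold-change was 1.19 ± 0.31 after 15% neutron (limma, adjusted p = 0.00552), 0.66 ± 0.26 after x-rays (0.0418) and 0.58 ± 0.15 after neutron alone (0.00481), and none passed the rule for differential expression. At 5 and 25% neutron it was 0.39 ± 0.29 and 0.07 ± 0.23. The Cd4 probe printed above, spotted 10 times per array, was not well above background on any irradiated array and was so on 1 control array. Its measured means were -0.65 in controls and between -1.66 and -1.05 in the irradiated groups, opposite in direction to the other probe, and no fold is given for it. The direction of Cd4 thus rests on 1 probe, and it turned negative after every exposure when arrays were centred on the spike-in RNAs.

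Of the CD3 chains, the delta chain was the 1 that was called, at 5 and 15% neutron. Cd3d ran from 7.27 to 8.11 in controls (median 7.72). After x-rays it ran from 5.98 to 7.33 (6.70), from 5.43 to 6.73 after 5% neutron (6.36) and from 5.96 to 6.87 after 15% neutron (6.44). It ran from 6.80 to 7.40 after 25% neutron (7.14) and from 6.30 to 7.30 after neutron alone (7.00). The 5 and 15% arrays were all below the controls, with log2 fold-changes of -1.50 ± 0.28 (limma, adjusted p = 0.000747) and -1.25 ± 0.24 (adjusted p = 0.000694), while the others overlapped with controls. The values after x-rays, 25% neutron and neutron alone were -1.05 ± 0.26, -0.54 ± 0.20 and -0.81 ± 0.22, and these did not pass. Cd3g had log2 fold-changes of -0.80, -1.03, -0.81, -0.15 and -0.65 in the order x-rays, 5, 15 and 25% neutron and neutron alone. Cd3e had -0.41, -0.67, -0.43, -0.12 and 0.12. Neither gene passed in any comparison and both overlapped with controls in each, with the smallest adjusted p at 0.0147 for Cd3g and 0.0763 for Cd3e in limma. Cd3d, Cd3e and Cd3g lie side by side in the genome and are read here by 1 probe each.

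The zeta chain is present as a dimer in the receptor and carries most of its tyrosine motifs. Cd247 ran from 1.61 to 2.47 in controls (median 1.92). After x-rays it ran from 0.43 to 1.56 (0.86), from -0.24 to 2.09 after 5% neutron (0.55) and from 0.01 to 1.33 after 15% neutron (0.74). After 25% neutron it ran from 0.52 to 1.78 (1.17), and in the 5 neutron alone arrays with a value from 0.65 to 1.53 (1.21). X-ray, 15% and neutron alone arrays were all below the controls. Over the members, 3, 4, 4, 2 and 1 of 10 genes lay below all controls in the 5 comparisons, and 17, 13.8, 16.2, 15.4 and 20.3% of all genes did. The fall at 15% neutron, -1.34 ± 0.26, was the 1 that passed (limma, adjusted p = 0.000889), and the others ranged from -1.29 to -0.76 with adjusted p between 0.00371 and 0.0261. The probe is dim, and in the irradiated groups it was well above background on 3 to 5 of 6 arrays. A further Cd247 probe, well above background on 14 arrays, gave values from -0.65 to 0.08, none of which passed.

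Of the co-signalling genes, Cd5 fell after each mixed field and Cd28 passed in no comparison. CD5 dampens receptor signalling on T cells and is also found on a subset of B cells. Cd5 ran from 6.33 to 7.38 in controls (median 6.72). After x-rays it ran from 5.45 to 6.27 (5.96), from 4.40 to 5.90 after 5% neutron (5.12) and from 4.77 to 5.99 after 15% neutron (5.76). After 25% neutron it ran from 5.72 to 6.20 (5.86) and after neutron alone from 5.96 to 7.05 (6.38). All arrays given 3 Gy were below all controls, and the neutron alone arrays overlapped with them. The log2 fold-changes were -1.64 ± 0.30 after 5% neutron (limma, adjusted p = 0.00074), -1.29 ± 0.28 after 15% neutron (0.00188) and -0.88 ± 0.20 after 25% neutron (0.00331). After x-rays it was -0.89 ± 0.21, with an unadjusted p of 0.00101 just over the limit, and after neutron alone -0.44 ± 0.22. At 15% neutron the call for Cd5 was lost on leaving out control replicate 2, 3, 5 or 6 or 15% neutron replicate 2, and at 25% on leaving out any of 10 of the 12 arrays, all but control replicate 4 and 25% neutron replicate 1.

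CD28 supplies the second signal that a T cell needs for activation. Cd28 gave log2 fold-changes of -0.69 ± 0.22 after x-rays (limma, adjusted p = 0.0166), -0.59 ± 0.33 after 5% neutron, -0.16 ± 0.31 after 15% neutron, 0.07 ± 0.23 after 25% neutron and -0.12 ± 0.24 after neutron alone. None passed. Lck gave -0.87 ± 0.25 after x-rays (adjusted p = 0.00904), -1.001 ± 0.343 after 5% neutron (0.0289), -0.48 ± 0.30 after 15% neutron, -0.34 ± 0.24 after 25% neutron and -0.37 ± 0.24 after neutron alone, and none of these passed either. Both genes were spread widely at 5 and 15% neutron, where Cd28 ran from 3.65 to 5.53 and from 3.75 to 5.44.

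Within 1 scan session, the 5 x-ray and 5 control arrays scanned together gave -1.80 for Cd8a, -0.91 for Cd5, -1.17 for Cd3d and 0.75 for Cd4, and 9 of 10 members were negative. In the session with 1 array each of controls, x-rays, 5 and 15% neutron, the differences for Cd8a were -1.91 after x-rays, -3.36 after 5% neutron and -3.30 after 15% neutron. There, all 10 members including Cd4 (-0.18 and -0.25) were negative after 5 and 15% neutron. With scan session as a block, only 1 array of each group informs each of the latter comparisons. A count of members called in that fit is therefore not read as a result about the members.

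Differences between genes on the same array are not altered by centring the array on another value, and 5 such differences were tested between groups with exact permutation tests (two-sided), adjusted over the 50 tests. Only the change of a difference between groups is interpretable. Cd8a fell relative to Cd4 after every exposure, by 2.48 after x-rays, 2.86 after 5% neutron, 3.15 after 15% neutron, 1.65 after 25% neutron and 1.64 after neutron alone on the log2 scale. In all 5 comparisons the exposed arrays lay below all controls, with p = 0.00216, the smallest that 6 against 6 arrays allow (exact permutation test, adjusted p = 0.0072). The difference ran from -3.15 to -2.32 in controls, from -6.34 to -5.44 after 15% neutron and from -4.86 to -3.58 after neutron alone. Its adjusted p stayed below 0.05 under quantile normalization, another background correction, a floor on low intensities and without any single array. It uses the representative Cd4 probe alone.

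Cd8b1 also fell relative to Cd4, by 0.92 after x-rays, 1.78 after 5% neutron, 2.13 after 15% neutron, 0.94 after 25% neutron and 0.50 after neutron alone on the log2 scale. The adjusted p were 0.0135, 0.0072, 0.0072, 0.0191 and 0.0412 (exact permutation test). After quantile normalization the x-ray, 25% and neutron alone changes were -0.70, -0.75 and -0.39 and no longer passed, and the neutron alone call was lost on leaving out any of 10 single arrays. Lck relative to Cd3e fell by 0.49 after neutron alone, with no overlap with controls (adjusted p = 0.0072, exact permutation test), and by 0.05 to 0.46 after the other exposures, which did not pass. Cd247 relative to Cd3e fell by 0.90 after 15% neutron and by 0.83 after neutron alone (adjusted p = 0.0379 and 0.0228, exact permutation test). Both calls were lost after quantile normalization, where the changes were -0.24 and -0.54, and the 15% call also on leaving out any of 7 single arrays.

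**Figure D3:**
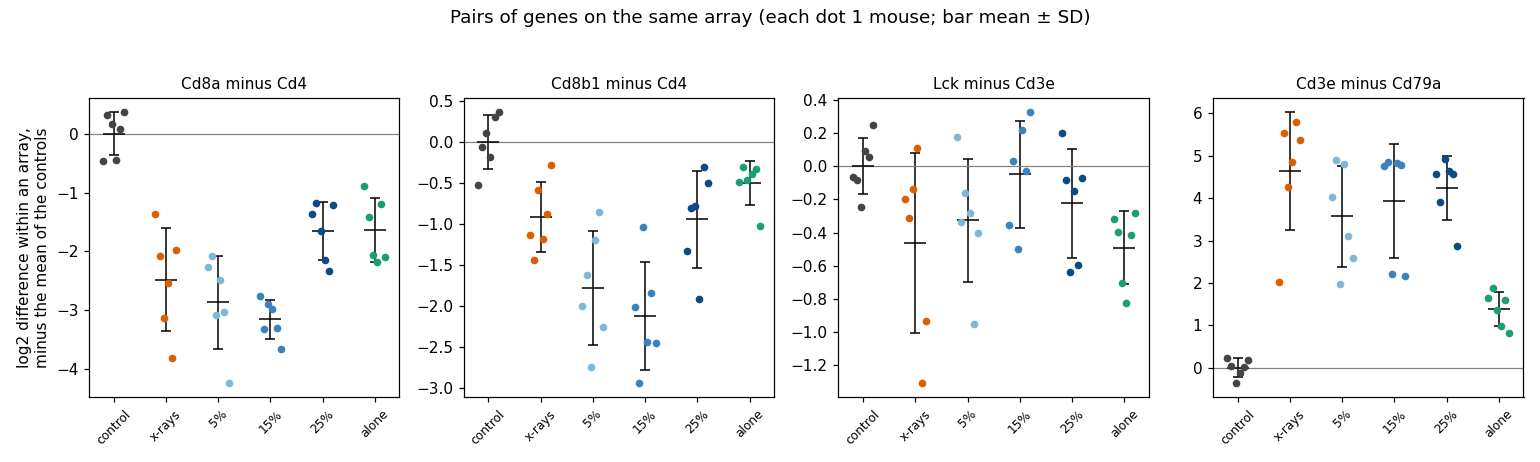
Difference of the log2 intensities of 2 genes on the same array, minus the mean of the controls (y axis), for 4 of the gene pairs in the 6 groups (x axis), with 1 dot per mouse and bars for the mean ± SD; y axes differ. Cd8a minus Cd4 was below all controls on every irradiated array, and Cd3e minus Cd79a above all controls, with neutron alone (mean change 1.39) nearest to them.

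Relative to the B-cell gene Cd79a, a chain of the B-cell antigen receptor, the T-cell gene Cd3e rose. On the log2 scale the difference rose by 4.64 after x-rays, 3.57 after 5% neutron, 3.94 after 15% neutron, 4.25 after 25% neutron and 1.39 after neutron alone, each with no overlap with controls (adjusted p = 0.0072, exact permutation test). Cd79a itself ran from 8.49 to 9.90 in controls, from 2.53 to 6.51 after x-rays and from 7.61 to 8.35 after neutron alone. Cd3e was not differentially expressed in any of these comparisons, and its own log2 fold-changes, given above, lay between -0.67 and 0.12.

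Between exposures, no member was called in any of the 4 comparisons with x-rays, where 0, 4.09, 2.61 and 12.9% of all genes were called for 5, 15 and 25% neutron and neutron alone. At an unadjusted p below 0.05 there were 2, 0, 2 and 3 members in limma, beside 23.3, 28.1, 29.4 and 40.1% of all genes. Cd28 after 25% neutron had the smallest unadjusted p, 0.00821 in limma, and was 0.76 ± 0.25 above x-rays on the log2 scale, with an adjusted p of 0.0772. Every 25% array was above all x-ray arrays, a position that 1.18% of all genes took, but only narrowly (lowest 4.664 against highest 4.659). Cd8a after neutron alone was 0.76 ± 0.27 above x-rays, with overlap, an unadjusted p of 0.0135 and an adjusted p of 0.0487. The comparison of neutron alone with 25% neutron, which received the same neutron dose and were scanned in the same session, called 1 member of 10, where 11.4% of all genes were called. That member was Cd8b1, which was 0.96 ± 0.23 higher after neutron alone (limma, adjusted p = 0.00818). It ran from 4.04 to 5.30 after 25% neutron (median 4.40) and from 5.12 to 5.80 after neutron alone (5.36), so that the highest 25% array overlapped. The call was lost on leaving out any of 11 of the 12 arrays, and remained without the highest 25% array. Over all 12 arrays the members split into 5 higher and 5 lower after neutron alone, whereas on the slide that held 2 arrays of each group all 10 were higher.

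Among the within-array differences, 3 differed between exposures. Cd8b1 relative to Cd4 was 1.21 lower after 15% neutron than after x-rays on the log2 scale, a change of -1.21 (adjusted p = 0.0228, exact permutation test). For these groups, 5 arrays of each were scanned in different sessions, so session and exposure can hardly be told apart. In the session with 1 array of each, Cd8b1 changed by -1.23 and Cd4 by -0.47. Cd3e relative to Cd79a changed by -3.25 between x-rays and neutron alone and by -2.86 between 25% neutron and neutron alone, with no overlap (adjusted p = 0.0072 for both, exact permutation test). The remaining 22 of the 25 differences between exposures did not pass.

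The members varied together over the 36 arrays, apart from Cd4. Pearson's r between 2 members had a median of 0.69 over the 45 pairs and ran from -0.36 for Cd3d with Cd4 to 0.92 for Cd8a with Cd5. After removing each group's mean the median was 0.68, so that mice of 1 group also differed in common. With the mean of the members' standardized levels, Cd5 and Lck had r = 0.92, Cd8a 0.91, Cd3e 0.88, Cd8b1 0.66 and Cd4 0.10. Each member is itself part of that mean, which raises its r, so these values are not comparable with those of other genes below. These are descriptions over arrays that share the scaling and differ in their number of probes above background. Of all other genes, those most alike to that mean included Cd96 (r = 0.93), Wscd2 (0.92), Serp2 (0.90), Satb1 (0.90), D8Ertd82e (0.90), Tspyl3 (0.90) and the transcripts ENSMUST00000103291 (0.92), ENSMUST00000142135 (0.90) and ENSMUST00000103273 (0.90). Cd96 is a receptor of T and NK cells, and Satb1 is a chromatin organiser of thymocytes.

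A list of 50 genes of T-cell signalling beyond the receptor was examined beside the members. All were on the array and 44 were tested. There were 20 differentially expressed after x-rays, 19 after 5% neutron, 21 after 15% neutron, 15 after 25% neutron and 13 after neutron alone, all lower, with 0 higher in each comparison in limma. Between 23 and 31 of the 44 did not pass, and the shares of all genes called lower were the 16.9, 14, 16.5, 13.9 and 20.5% given above. The median log2 fold-changes over the list were -0.95, -1.11, -1.04, -0.55 and -0.69. Its summed level ran from 11.09 to 11.78 on the log2 scale in controls, from 9.68 to 10.90 in the x-ray, 5 and 15% arrays, from 10.38 to 10.83 at 25% and from 10.45 to 11.14 after neutron alone.

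Among the largest falls on that list was Malt1, a protease that relays antigen receptor signals to NF-kappaB, which fell on the log2 scale by 1.91 after x-rays (SE 0.29), 2.17 after 15% neutron (0.25) and 1.76 after 25% neutron (0.20), with adjusted p of 0.000168, 1.75e-05 and 1.85e-05 in limma. Slamf6, a receptor of T, B and NK cells, fell by 2.03 after x-rays, and Ets1, a transcription factor of lymphocytes, by 2.09 after 5% neutron. Ptpn6, a phosphatase that restrains antigen receptors of both T and B cells, fell 4.60-fold after 15% neutron and by 1.72 on the log2 scale after 25% neutron. Tespa1, which takes part in T-cell receptor signalling in thymocytes, fell by 2.17 after 5% neutron and by 1.37 after neutron alone, and Nfatc3, a calcium-dependent transcription factor, fell by 1.75 after neutron alone. The exposures named for each gene are those in which its fall was among the 3 largest by the naming rule. Malt1, Slamf6, Ptpn6 and Tespa1 were called lower after every exposure. Ets1 was called after each 3 Gy exposure but not after neutron alone (-0.91). Nfatc3 was called after each exposure except x-rays (-0.93), and its largest fall was at 15% neutron (-2.07). Several of these genes are also used by B cells. Of 16 receptor chain names searched, 2 were on the array, and neither was well above background on all arrays. Tcrb-J was lower after every exposure, from -2.12 to -0.90 on the log2 scale, while Tcra was called in none. Tcra was 1.37 ± 0.42 higher after x-rays and 0.56 ± 0.17 higher after neutron alone, with adjusted p of 0.0127 and 0.0131 in limma, and between -0.01 and 0.06 after the mixed fields.

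Markers of other blood cells moved at the same time, and their part in these results was not tested. All 12 B-cell markers were called lower after each 3 Gy exposure. After neutron alone 11 of 12 were called lower and all 12 had a log2 fold-change below 0. The median log2 fold-changes were -4.08, -3.87, -4.13, -4.30 and -1.57. The summed level of the B-cell list ran from 11.38 to 12.18 in controls, from 6.32 to 9.56 after the 3 Gy exposures and from 10.05 to 10.47 after neutron alone. Of all genes tested, 12.9, 9.04, 12.6, 10.9 and 16.1% were called higher over the 5 exposures. The counts of markers called higher that follow are to be read against these shares. Of 9 red-cell markers, 5, 5, 6, 3 and 9 were called higher over the 5 exposures and none lower, and their summed level ran from 15.87 to 16.24 in controls. It was above all controls after x-rays (16.46 to 17.82) and neutron alone (17.04 to 17.78), and overlapped with them at 5% (16.01 to 17.53), 15% (16.11 to 18.04) and 25% neutron (15.97 to 17.73). Such a sum gives the brightest probes the most weight. The list includes the globin genes Hbb-b1, Hbb-bt and Hba-a1, whose RNA had been reduced in all samples, and the part of residual globin was not tested. Of 9 neutrophil markers, 3 were higher in each exposure, and 1 was lower after 15% neutron, 25% neutron and neutron alone. Of 11 NK-cell markers tested, from a cell type that also uses Cd247 and Lck, 0 were lower in any exposure and 1 was higher after 25% neutron in limma. At an unadjusted p below 0.05 there were 0, 2, 3, 5 and 2, beside 63.9, 52.1, 55.9, 54.2 and 64.1% of all genes. The summed level of the NK-cell list overlapped with controls in every group. Of 9 monocyte and dendritic cell markers, 0, 1, 0, 0 and 3 were higher, and of 8 platelet markers 0, 0, 2, 3 and 1, with none of either lower.

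**Figure D4:**
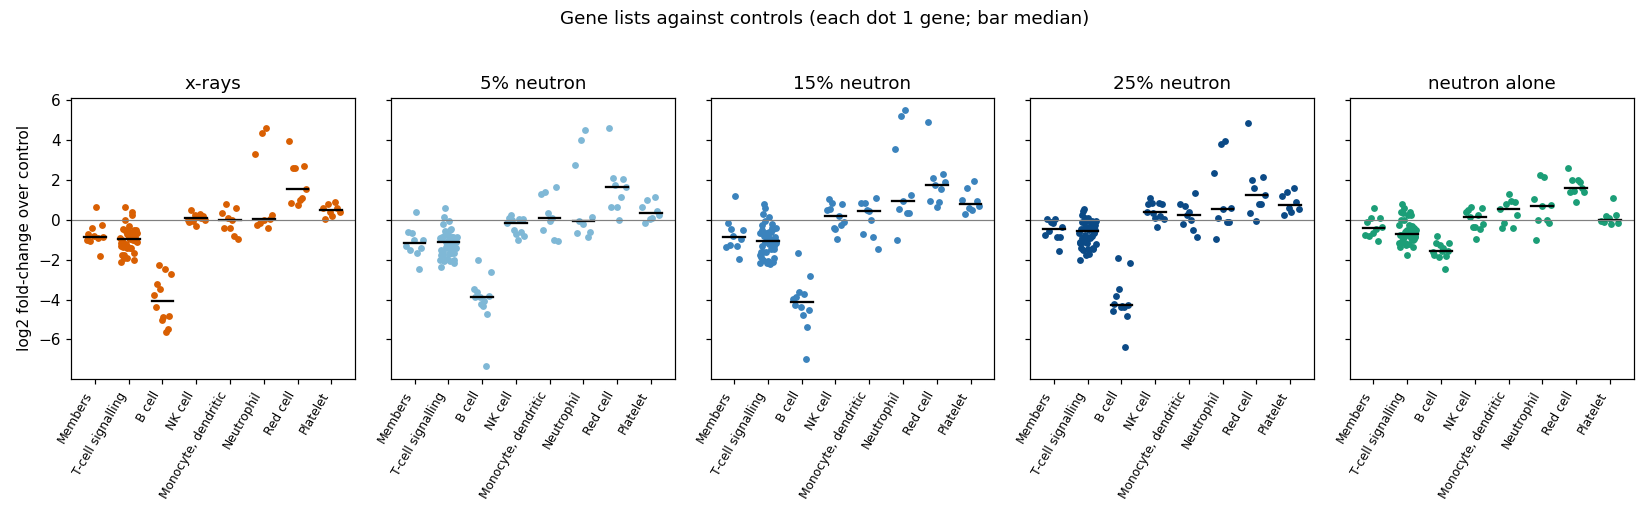
Log2 fold-change over controls (y axis) of each tested gene of the 10 receptor genes (Members) and of 7 gene lists (x axis), 1 panel per exposure; each dot is 1 gene and the bar is the median of the list. The members' medians, from -1.16 to -0.40, lie below those of all 15085 genes (from -0.12 to -0.02) and above those of the B-cell list, from -4.30 to -1.57.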

How the data were processed

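Blood RNA of 36 mice was measured on 1-colour Agilent mouse arrays. Per the submitters' processing notes, the authors deposited the linear intensities of Feature Extraction 12.0.2, which subtracts background within an array and gives dim spots a surrogate. Their own normalized and filtered log2 values, also deposited, served as an alternative.

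After log2 transformation, non-uniform spots were dropped, repeated spots of a probe averaged and arrays centred on their medians. Filters followed the study's methods. Each comparison used limma 3.58.1 (R 4.3.3, data.table version 1.17.8) on its 12 arrays; figures were drawn with matplotlib 3.10.9 in Python 3.11.15. Probes failing the background filter were not tested. Samples were grouped by the labels. The number of arrays limits the precision. On data simulated for x-rays against controls over 15085 genes, limma recovered 84.5% of 200 genes given a log2 change of 2 and 13.5% at a log2 change of 1, with 11 and 3 false calls, so that changes of 1 are often missed.

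Named genes were the 10 members with every probe, and of the signalling and receptor chain lists, for each exposure, the 3 largest falls and 3 largest rises among called genes that all 12 arrays measured well above background. The 10 genes most alike by Pearson's r and Cd79a were also named. Some genes that this rule names are not reported here. The members, lists and tests were chosen with earlier results of these data known. Replicate numbers do not pair the arrays (mean correlation of deviations 0.04 over 90 pairs of the same number). Labels do not give cages or batches. Alternatives were other scalings, background corrections, filters, probes, blocks, weights and tests, and leaving out each array.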

Additional observations from a re-analysis of the deposited data

Results flagged for a closer look

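Of 60 groups of member values, 5 held an array whose gap to its nearest neighbour took up more of the group's range than Dixon's critical value allows, and chance gives about 1 in 20. These were Cd4 in control replicate 4 (6.26, the lowest) and in 15% neutron replicate 3 (6.24, against 7.60 for the next), Cd8b1 in 5% neutron replicate 3 (2.37, the lowest) and in 25% neutron replicate 5 (5.30, the highest), and Cd28 in x-rays replicate 2 (3.76, the lowest). Without that 15% array, Cd4 was 1.47 above controls after 15% neutron on the log2 scale and was called. Without that 5% array, Cd8b1 was -1.09 after 5% neutron and was called.

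Between exposures, 4 results passed their test. Cd8b1 was 0.96 higher after neutron alone than after 25% neutron on the log2 scale. Cd8b1 minus Cd4 changed by -1.21 from x-rays to 15% neutron. Cd3e minus Cd79a changed by -3.25 from x-rays to neutron alone and by -2.86 from 25% neutron to neutron alone. Session and exposure cannot be told apart in the comparison of neutron alone with x-rays. In that of 15% neutron with x-rays only 1 array of each group shared a session.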

How the results depend on the processing

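Cd8a kept its direction under all 78 alternative fits against controls and was called in 62. In the comparisons of x-rays, 5, 15 and 25% neutron with controls it stayed called without any single array. Cd247, Cd5, Cd3d, Lck and Cd3g also stayed below 0 in every such fit that held them. Cd5 was called in 48 of 78 fits, Cd3d in 37 of 78, Cd247 in 18 of 68, Lck in 14 of 73 and Cd3g in 12 of 78. With centring on the spike-in RNAs the median change of all genes against controls, on the log2 scale, lay between -2.05 and -0.996, and the members' median lay below that of all genes under every scaling. Where a cause is not named, the cause was not tested. Dim probes limit Cd247 and the further Cd4 probe.

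The number of members called against controls changed as follows. Except where stated, the shares of all genes called under these settings are not given here, so these counts are not results about the members. With the adjusted p alone, 58.9, 44.5, 49.7, 47 and 59.6% of all genes were called in either direction over the 5 exposures. With spike-in centring and normexp, the median log2 change of all genes after neutron alone was -2.05 and -0.84, against -0.12 in the main fit. After x-rays (1) it was 8 with an adjusted p below 0.05 alone, 4 with quantile normalization, 9 with spike-in centring, 7 with normexp background correction, 3 with a floor or without the fold filter, 4 in the deposited expression table, and 2 with a stricter background filter, averaged probes, 1 model over 36 arrays or array weights. After 5% neutron (3) it was 7 with the adjusted p alone, 9 with spike-in centring, 8 with normexp, 5 with quantile normalization, the deposited table, 1 model or array weights, and 0 with slide or scan session as a block. After 15% neutron (4) it was 7 with the adjusted p alone, 9 with spike-in centring, 0 with the slide block and 1 with the session block. After 25% neutron (2) it was 5 with the adjusted p alone 1 with 75th percentile scaling, normexp or 1 model, and 3 with quantile normalization, spike-in centring, the deposited table or array weights. After neutron alone (0) it was 5 with the adjusted p alone or normexp, 2 with quantile normalization, 10 with spike-in centring, 3 in the deposited table, and 1 with 75th percentile scaling, scaling on probes well above background on all arrays, averaged probes or array weights. Against x-rays (0), 1 was called for 5% neutron with spike-in centring and 1 for neutron alone with the adjusted p alone, where 28.1% of all genes were called. Neutron alone against 25% neutron (1) gave 0 with spike-in centring, normexp, the deposited table, 1 model or the slide block.

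The replicate numbers share nothing known. With the replicate number as a block, 1 member was called after x-rays, 2 after 5% neutron, 1 after 15% neutron, 1 after 25% neutron, 0 after neutron alone and 0 for neutron alone against 25% neutron. The share of all genes called in these blocked fits is not given here, so these counts are not results about the members. The session block was not run for 25% neutron or neutron alone, since no session held both these and controls or x-rays, nor between these, which share 1 session.

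Direction changed for genes that were not called. Cd4 turned to -0.31, -0.98, -0.091, -0.78 and -1.29 over the 5 exposures with spike-in centring, to -0.11 (5% neutron) and -0.14 (neutron alone) with normexp, and to -0.18 (5%) and -0.25 (15%) with the slide or session block. At 25% neutron it was -0.14 with quantile normalization, -0.18 in the deposited table and -0.092 with array weights. Cd28 was 0.039 (15%) and 0.15 (neutron alone) with 75th percentile scaling, 0.059 (15%) with array weights, 0.083 (neutron alone) with quantile normalization and -0.79 (25%) with spike-in centring. Cd8b1 after x-rays was 0.089 with 75th percentile scaling and 0.039 with scaling on probes measured well above background throughout, and after neutron alone -1.79 with spike-in centring, -0.61 with normexp and -0.038 with array weights. Cd3e after neutron alone was -0.0060 with quantile normalization, -1.75 with spike-in centring and -0.53 with normexp. With spike-in centring Cd8a was -0.13 for neutron alone against x-rays, and Cd8b1, which had been called, -0.063 for neutron alone against 25% neutron. The further Cd247 probe gave 0.083 after 25% neutron.

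With quantile normalization, Cd8b1 minus Cd4 no longer passed after x-rays (-0.70), 25% neutron (-0.75) and neutron alone (-0.39), nor did Cd247 minus Cd3e after 15% neutron (-0.24) and neutron alone (-0.54). Cd247 minus Cd3e changed sign for 5% (0.18) and 25% neutron (0.084) against x-rays, and Cd8a minus Cd4 for neutron alone against 25% neutron (-0.14).

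Without single arrays, the members called ranged from 1 to 2 after x-rays (2 without control replicate 4 or x-rays replicate 1, 3, 4 or 6), 3 to 5 after 5% neutron (5 without 5% neutron replicate 1), 3 to 5 after 15% neutron, 1 to 2 after 25% neutron, 0 to 1 after neutron alone (1, Cd8a, without control replicate 4 or neutron alone replicate 5) and 0 to 1 for neutron alone against 25% neutron. Cd28 ranged from -0.27 to 0.072 after 15% neutron, -0.033 to 0.15 after 25% and -0.23 to 0.035 after neutron alone, Cd4 from -0.062 to 0.18 after 25% neutron, and Cd8b1 from -0.023 to 0.18 after neutron alone. Against controls, Cd247 minus Cd3e ranged from -0.75 to -0.55 (5%), -1.05 to -0.70 (15%) and -0.76 to -0.50 (25%), Lck minus Cd3e from -0.58 to -0.29 (x-rays), -0.43 to -0.20 (5%) and -0.13 to 0.040 (15%), and Cd8b1 minus Cd4 from -0.61 to -0.40 (neutron alone). Against x-rays, Cd8b1 minus Cd4 ranged from -1.05 to -0.67 (5%), -0.15 to 0.17 (25%) and 0.31 to 0.54 (neutron alone), Cd247 minus Cd3e from -0.20 to 0.11 (5%) and -0.22 to 0.10 (25%), Lck minus Cd3e from -0.032 to 0.26 (5%) and -0.20 to 0.088 (neutron alone), and Cd8a minus Cd4 from -0.94 to -0.45 (15%) and 0.57 to 1.06 (25%). For neutron alone against 25% neutron, Cd8a minus Cd4 ranged from -0.14 to 0.12.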
